A study of Homo sapiens with 12 samples.

Results

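A set of 348 genes, of 35238 in the deposited table, was nearly silent in vehicle-treated HK-2 cells and stood higher under aristolochic acid I (AAI) when the POLR2A message had been knocked down than when it had not. A rise with AAI alone was not required, and not every member showed one. HK-2 is an immortalised human kidney proximal tubule line. Cells were transfected with 10 nM of scrambled siRNA duplex (SCR) or of a duplex against POLR2A (siB) and at the same time given DMSO vehicle or 25 µM AAI, a plant nephrotoxin, for 24 hours, which gave 4 groups of 3 libraries (SCR DMSO, siB DMSO, SCR AAI and siB AAI). The controls were therefore transfected and vehicle-treated too, and the design rests on 1 line and 1 duplex per siRNA arm. A gene was a member when its mean over the 6 DMSO libraries was under 0.5 CPM (counts scaled to a common library total, the unit used throughout), when each of the 3 siB AAI libraries held at least 1 CPM, when the lowest siB AAI value was at least 1.5 times the highest SCR AAI value, and when at least 1 of the 6 AAI libraries was under 3 CPM. The rule read the AAI values themselves, so the rise of the members in siB AAI is a description and not a finding. No source states that the 3 libraries of a group were separate cultures, so p-values measure the spread between these libraries alone.

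POLR2A encodes RPB1, the catalytic and largest subunit of RNA polymerase II, the enzyme that makes messenger RNA. AAI is activated in tubule cells to a form that binds purine bases, and the bulky adducts block transcribing polymerases and are read by the repair machinery. A transcript ordinarily ends with cleavage and polyadenylation at the 3′ end of its gene, after which the polymerase is released from the template. Many tissue-restricted genes are kept silent in a given cell type, and the members include such genes of nerve, muscle, gut, immune and germ tissue.

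POLR2A itself, the knockdown target, measured 284 ± 24.2 CPM (SD, n = 3) in the SCR libraries without AAI, against 140 ± 2.61 CPM in the siB libraries. With AAI it measured 707 ± 30.1 CPM in SCR cells, against 232 ± 29.5 CPM in siB cells. Under AAI the siB level was lower by limma (log2 change of -1.61, SE 0.15, adjusted p = 5.82e-04). Without AAI the log2 change was -1.01 (SE 0.14) and did not pass (adjusted p = 0.666). The depth recovered from the table ran from 15844015 to 42805295 reads, so that 1 CPM stood for 15.8 to 42.8 reads, and the limit that 3 reads set ran from 0.0701 to 0.189 CPM. A single transcript, AC010970.2, took between 1887 and 105566 CPM with no order by group, and without it in the totals 349 genes met the rule, 335 of them members. SCR DMSO replicate 2, the deepest library, stood apart from the other DMSO libraries, and without it 333 genes met the rule, all of them members.

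The members were near the detection limit without AAI. Their median was 0.0701 to 0.147 CPM in the 6 DMSO libraries, and 85 of the 348 lay at or under the limit in all 6. In the SCR AAI libraries the medians were 0.663, 0.544 and 0.509 CPM, and for 200 members every SCR AAI library lay above every DMSO library. That count was not made over other genes, so it does not set the members apart. In the siB AAI libraries the medians were 3.35, 2.38 and 2.30 CPM. Summed over all members, the level was 43.5 to 68.8 CPM in DMSO, 252 to 324 CPM in SCR AAI, and 1548, 1076 and 1053 CPM in siB AAI. The lowest siB AAI sum lay above every SCR AAI sum, as the rule requires. In bulk RNA a change in how many cells express a gene and a change in the level per cell cannot be told apart.

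**Figure D1:**
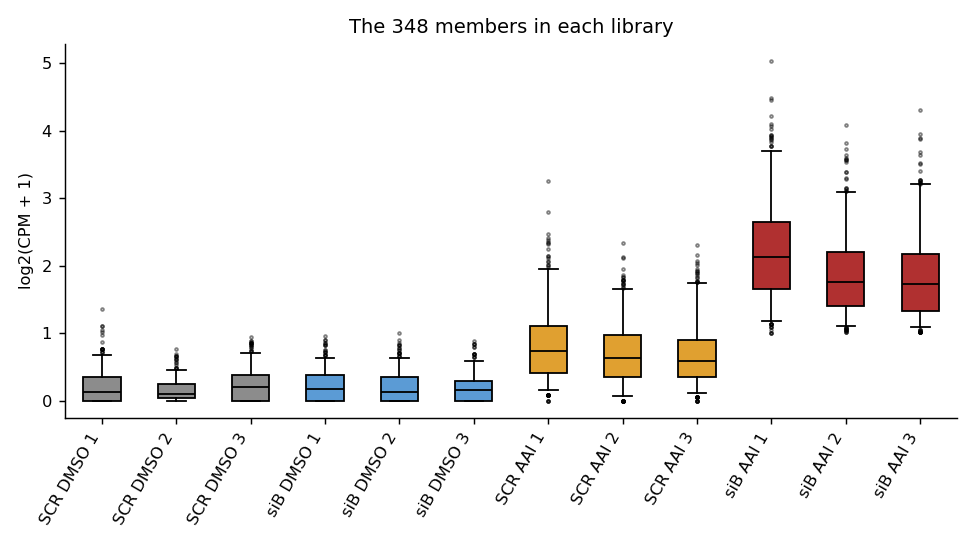
Box plots of log2(CPM + 1) for the 348 members in each of the 12 libraries, coloured by group (boxes are quartiles, lines medians, whiskers the 5th and 95th percentiles and points the members beyond them). The 6 DMSO libraries sit near 0, the 3 SCR AAI libraries have medians of 0.509 to 0.663 CPM, and the 3 siB AAI libraries have medians of 2.30 to 3.35 CPM.

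These were low-abundance transcripts in every group. The mean over siB AAI had a median of 2.65 CPM across members, with quartiles of 1.85 and 4.16 CPM and a highest value of 21.2 CPM, and only 63 members reached 5 CPM and 9 reached 10 CPM. In SCR AAI 230 members stayed under 1 CPM in all 3 libraries, and 51 held at least 1 CPM in all 3. The ratio of the siB AAI mean to the SCR AAI mean had a median of 4.57. The lowest siB AAI library was at least 2 times the highest SCR AAI library for 236 members, at least 3 times for 113 and at least 5 times for 45. The spread among siB AAI replicates was a median of 26.2% of the mean, and siB AAI replicate 1, the shallowest library, was the highest of its group for 257 members (73.9%). The same library was highest for 69.7% of 709 other weak genes with a mean of at least 1 CPM over the AAI libraries. With that library left out, 370 genes met the rule, all 348 members among them.

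The members with the highest levels under siB AAI included muscle and nerve genes. NACAD, which encodes a relative of the alpha subunit of the nascent polypeptide-associated complex (chromosome 7, 45080437 to 45088969, minus strand, hg38), had 31.7, 13.1 and 18.8 CPM in the siB AAI libraries. In the SCR AAI libraries it had 8.50, 4.03 and 2.78 CPM, and no DMSO library exceeded 0.171 CPM. The NACAD groups did not overlap, but its first replicate was the highest in both AAI groups and its ratio of 1.54 was close to the limit. MYH15, a myosin heavy chain gene, had 21.3, 15.9 and 14.5 CPM in siB AAI against 3.15, 1.95 and 3.95 CPM in SCR AAI. CLCN1, the chloride channel of skeletal muscle (chromosome 7, 143316111 to 143352083, plus strand), had 21.0, 11.5 and 13.8 CPM against 5.91, 1.90 and 3.21 CPM, and it was at or under 0.0701 CPM in every DMSO library. LRRC43 averaged 13.4 CPM in siB AAI, FRZB, a secreted antagonist of Wnt signals, 12.6 CPM, and RAB44, a Rab GTPase, 11.9 CPM.

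CMYA5, a striated muscle gene also named myospryn, had 12.6, 9.46 and 8.57 CPM in siB AAI against 1.60, 1.13 and 0.900 CPM in SCR AAI. PRPH encodes peripherin, an intermediate filament of peripheral neurons, and had 15.3, 6.69 and 6.97 CPM against 2.76, 0.906 and 0.626 CPM. ADGRF2, FAM131B, LEFTY2, DMRTA2 and NHLH1, also among the 15 with the highest means, had siB AAI means of 9.26 to 11.3 CPM.

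The members with the largest separation had low levels in SCR AAI. TMEM119, known as a marker of microglia and of bone-forming cells (chromosome 12, 108589851 to 108598320, minus strand), had 10.4, 5.12 and 6.48 CPM in siB AAI. In SCR AAI it had 0.110, 0.0906 and 0.431 CPM, no higher than the top DMSO library, in a DMSO range of 0.112 to 0.588 CPM. For the order of the members, an SCR AAI maximum under its 3-read limit was set to that limit, and by this measure TMEM119 had the highest ratio, 11.9 between the lowest siB AAI and the highest SCR AAI library. Without that floor, members with nearly no SCR AAI reads, such as MUC13 and SLFN11, have higher ratios that rest on a few reads. GCM1, a transcription factor of the placental trophoblast, had 4.04, 4.71 and 4.13 CPM against 0.386, 0.408 and 0.352 CPM. GCM1 was even among replicates, with a ratio of 9.90. LRRC15, a membrane protein of activated fibroblasts (chromosome 3, 194355249 to 194369743, minus strand), had 13.5, 5.22 and 8.36 CPM against 0.331, 0.0453 and 0.548 CPM. SLFN11, which acts at stalled replication forks, averaged 2.20 CPM in siB AAI and lay at or under the detection limit in all 3 SCR AAI libraries. The same group of 10 held ADAM30, RP11-154D6.2, LRRC37A11P, the GABA receptor gene GABRR1 and the sweet taste receptor gene TAS1R2, with ratios of 8.36 to 9.47 by the same measure.

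**Figure D2:**
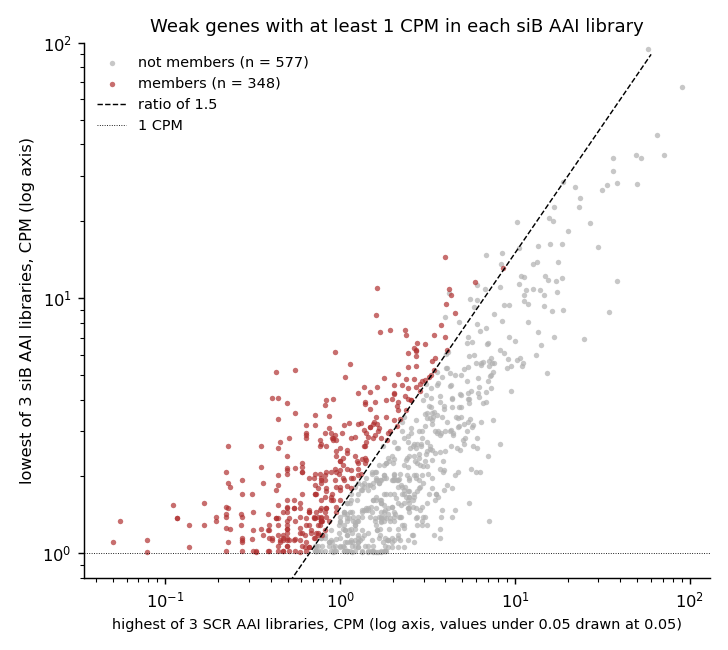
Each point is a gene with a DMSO mean under 0.5 CPM and at least 1 CPM in each siB AAI library, 925 in all, placed by its highest SCR AAI library (x axis, CPM, log scale) and its lowest siB AAI library (y axis, CPM, log scale). The 348 members lie above the dashed line of 1.5 times by the rule, and the 577 other genes lie below it or, for a few with high levels, were kept out by the limit of 3 CPM.

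Of the 20694 weak genes (DMSO mean under 0.5 CPM), 925 held at least 1 CPM in each siB AAI library and 444 held it in each SCR AAI library. The members just inside the ratio of 1.5 were AC112229.1, ZNF812P and NR5A1, with ratios of 1.5, 1.51 and 1.51. The non-members just under it were SFTPB, GRK7 and FABP2, with ratios of 1.5 after rounding, 1.49 and 1.49. Under the same rule with SCR AAI and siB AAI exchanged, 4 genes were found, CCDC89, DND1, PDIA2 and RP11-542C16.2. PDIA2, for example, had 3.31, 2.36 and 2.39 CPM in SCR AAI and 1.01, 0.877 and 1.39 CPM in siB AAI.

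The promoters of members differed among themselves in base content and elements. RefSeq promoters (GRCh38.p14, 250 bases before to 50 after the start) were matched by symbol for 207 of the 348 members. Both strands were searched for GGGCGG (the GC box), TATAAA (the TATA box) and TGANTCA (the AP-1 motif), and GC boxes could overlap each other by a base. A GC box was found in 45.4% of member promoters, against 45.7% of the 300 promoters of the raised weak genes outside the set, 31.8% of all weak genes, 72.8% of genes over 5 CPM in DMSO and 44.6% of all 27305 promoters in the table. A TATA box was found in 13.5%, against 14.3%, 19.8%, 4.82% and 12% in the same order, and an AP-1 motif in 10.1%, against 7.0%, 8.93%, 4.16% and 7.76%. The member promoters held a median of 10 CpG pairs in 300 bases and the expressed genes a median of 27. For the GC box and TATA box the members lay between all weak genes and the expressed genes, for AP-1 they lay above both, and no test was made. A few of the named members are shown to give the range, each as the 120 bases that end just before the start, 5′ to 3′ on the strand of the gene, with matches in capitals.
NACAD (chr7:45088970-45089089, minus strand): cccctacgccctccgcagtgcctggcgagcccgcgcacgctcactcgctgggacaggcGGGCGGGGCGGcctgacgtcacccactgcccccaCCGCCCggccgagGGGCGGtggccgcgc
CMYA5 (chr5:79689716-79689835, plus strand): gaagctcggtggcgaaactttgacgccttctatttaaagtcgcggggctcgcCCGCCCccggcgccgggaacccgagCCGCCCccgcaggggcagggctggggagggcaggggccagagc
CLCN1 (chr7:143315991-143316110, plus strand): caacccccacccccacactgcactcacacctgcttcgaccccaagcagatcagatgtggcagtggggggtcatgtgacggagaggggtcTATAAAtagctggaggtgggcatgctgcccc
PRPH (chr12:49295027-49295146, plus strand): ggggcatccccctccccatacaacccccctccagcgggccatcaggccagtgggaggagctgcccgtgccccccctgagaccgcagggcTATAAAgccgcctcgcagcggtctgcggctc
LRRC15 (chr3:194369744-194369863, minus strand): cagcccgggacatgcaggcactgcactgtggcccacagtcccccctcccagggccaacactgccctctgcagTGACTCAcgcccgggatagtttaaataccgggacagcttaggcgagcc

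In these windows NACAD held 4 GC boxes and CMYA5 held 2, while CLCN1 and PRPH each held a TATA box that began 31 bases before the start and no GC box. LRRC15 held an AP-1 motif that began 48 bases before the start. CpG pairs in the 300 bases numbered 34 for NACAD, 30 for CMYA5, 13 for PRPH, 8 for LRRC15 and 4 for CLCN1. Thus members with similar levels under siB AAI had unlike starts. Promoters of TMEM119 and TNFSF12 were not analysed here.

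Over all 20694 weak genes 348 were members. In the family lists below the share ran from 0.803% of weak genes (G protein-coupled receptors) to 8.53% (transporters). The total is no like comparison, since 54.4% of the weak genes with a span were pseudogenes. Ion channel genes gave 9 members of 135 weak genes in the channel list (6.67%). Besides CLCN1, these included CACNA1B and the nicotinic receptor subunit CHRNA4, the GABA receptor subunits GABRR1 and GABRR2, the glutamate receptor subunit GRIN3A, and the cation channels TRPC7 and TRPM5. GABRR2 had 5.24, 3.37 and 3.38 CPM in siB AAI against 0.442, 0.317 and 0.352 CPM in SCR AAI. CACNA1B, which encodes a presynaptic calcium channel, had 4.80, 5.63 and 5.36 CPM against 1.77, 2.63 and 2.62 CPM, a smaller but even separation. Among G protein-coupled receptors 8 of 996 weak genes were members, in a list filled mostly by silent olfactory receptor genes. They included the adrenergic receptors ADRA1D, ADRA2A and ADRA2B with ADGRF2, OR11M1P, OR2AE1 and TAS1R2. ADRA2A, which inhibits adenylyl cyclase, had 10.8, 7.48 and 7.66 CPM in siB AAI against 1.49, 1.5 and 1.92 CPM in SCR AAI.

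Transporters gave the most members of any family list, 18 of 211 weak genes (8.53%), with the pseudogenes SLC25A1P1 and SLC9A3P3 among them. SLC12A3, the thiazide-sensitive salt carrier of the distal tubule, had 5.30, 4.29 and 6.70 CPM in siB AAI against 1.49, 0.680 and 1.17 CPM in SCR AAI. SLC5A1, an intestinal and renal glucose carrier, had 4.99, 3.23 and 3.75 CPM against 0.828, 1.13 and 0.666 CPM. SLC22A2, the organic cation carrier of the basolateral proximal tubule, had 4.04, 2.82 and 2.89 CPM against 0.221, 0.272 and 0.509 CPM. All 3 genes have kidney functions, but other carriers of the list belong to other tissues. SLC6A4, the serotonin carrier, averaged 5.62 CPM in siB AAI and 1.45 CPM in SCR AAI, and SLC17A8, a vesicular glutamate carrier, 3.69 and 0.488 CPM. SLC26A4, the anion exchanger pendrin, averaged 2.84 and 0.285 CPM, and SLC4A1, the anion exchanger of red cells, 3.70 and 1.40 CPM. The other transporters of the list were ABCG8, SLC10A6, SLC13A3, SLC1A2, SLC24A4, SLC25A1P1, SLC25A47, SLC30A10, SLC39A5, SLC7A4 and SLC9A3P3, with siB AAI means of 1.68 to 4.81 CPM.

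Of the secreted growth factors, 4 of 69 weak genes were members, all of the transforming growth factor superfamily. LEFTY2 and LEFTY1 encode inhibitors of Nodal signals that set the left-right axis. LEFTY2 had 14.2, 6.14 and 8.68 CPM in siB AAI against 0.939, 0.181 and 0.705 CPM in SCR AAI. LEFTY1 had 6.25, 1.71 and 2.14 CPM against 0.718, 0.0453 and 0 CPM. The pair are close paralogs, so reads may be split between them and their separate levels are uncertain. GDF9, an oocyte growth factor, had 11, 7.85 and 8.04 CPM against 3.75, 1.59 and 1.72 CPM. GDF5, a factor of joint formation, had 3.66, 3.55 and 3.11 CPM against 1.49, 0.363 and 0.548 CPM.

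Developmental transcription factors gave 4 members of 128 weak genes. HOXB1, the anterior gene of the HOXB cluster, had 3.91, 2.17 and 2.79 CPM in siB AAI against 0.607, 0.0453 and 0.117 CPM in SCR AAI. DLX3, NEUROD2 and NKX1-1 averaged 2.33, 1.73 and 1.86 CPM in siB AAI and 0.504, 0.219 and 0.669 CPM in SCR AAI. The zinc finger list gave 6 of 131, namely ZNF534, ZNF560, ZNF705A, ZNF812P, ZSCAN10 and ZSCAN4, a gene of the early embryo. ZNF560 was the strongest, with 6.25, 11 and 8.25 CPM against 2.71, 1.68 and 1.96 CPM. The list of contractile genes and genes of related name gave 4 of 88, MYH15, ANKRD65, MYBPHL and MYO1A, not all of them muscle genes. That of adhesion, matrix and keratin genes gave 9 of 449 (2.0%). Within the latter, COL4A6, a basement membrane collagen chain, stood at or under the detection limit in all SCR AAI libraries and had 1.39, 1.29 and 1.13 CPM in siB AAI.

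Immune genes gave 9 members of 262 weak genes, spread over ligands and receptors of unrelated pathways. IL12RB2, a chain of the interleukin 12 receptor, had 7.95, 7.80 and 6.22 CPM in siB AAI against 2.32, 2.40 and 2.70 CPM in SCR AAI. IL31 and CD300A were at 0 in all 6 DMSO libraries. IL31, a T cell cytokine linked to itch, had 3.66, 3.46 and 2.84 CPM against 0.552, 0.634 and 0.431 CPM, and CD300A, an inhibitory receptor of myeloid cells, averaged 2.54 and 0.372 CPM. The nucleic acid sensors TLR7 and TLR9 averaged 2.1 and 2.93 CPM in siB AAI and 0.288 and 0.459 CPM in SCR AAI. TNFSF12, which encodes the cytokine TWEAK, averaged 8.75 CPM in siB AAI, and CCL5, IL17F and TNFSF14 1.57 to 2.59 CPM. Of the 12 proximal tubule markers, 7 were weak in these HK-2 cells and 2 of them were members. Among these ANPEP, a brush border peptidase, had 4.17, 2.82 and 2.25 CPM against 0.607, 0.317 and 0.352 CPM. SLC34A1 of the same list, not a weak gene, was lower in siB AAI, as given below. No list was tested.

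The limma calls over all genes place the members in these contrasts, which the rule had used. Under AAI, 454 of 14946 genes were raised by knockdown at an adjusted p under 0.05 and 2-fold (3.04%), and 239 of the 348 members were among them. In siB cells 2080 of 14928 genes were raised by AAI (13.9%), including 316 members, and 5.79% were lowered. In SCR cells 1100 of 14228 genes were raised by AAI (7.73%), and 2.73% were lowered. The 51 members tested there passed the filter of 1 CPM in 3 libraries through SCR AAI alone, so that their 47 calls followed from the filter. Without the filter 55 of 348 members were called raised, against 985 of all 25641 genes tested. With median-ratio size factors this contrast gave 934 genes raised and 695 lowered, against 1100 and 389 here. No member was called lowered in any of these contrasts. With SCR AAI replicate 3 left out, 82 members were called raised by knockdown under AAI, among 144 of all 14946 genes.

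The comparison of siB with SCR cells in DMSO was not used by the rule, which read only their common mean. It asked whether the members differed by knockdown without AAI. A mean of 0.1 CPM was reached by 204 of the 348 members, and 0 of them were called by limma in either direction, against a background of 0.0% of 17584 genes. POLR2A, the knockdown target, did not pass here either, so 0 calls cannot show that the members were unchanged. The median log2 change of these members was -0.01, and that of all genes tested was 0.04. At an unadjusted p under 0.05 there were 4 members (1.96%), against 788 of all genes (4.48%), and voom on the recovered reads also called 0. Those 4 were TRIM22, HPDL, RP11-29H23.5 and PLEKHS1. TRIM22, an interferon-induced gene, had 1.06, 0.537 and 0.772 CPM in SCR DMSO and 0.256, 0.0902 and 0.167 CPM in siB DMSO (log2 change of -0.60, SE 0.14, adjusted p = 1.0). The other 144 members were too low in DMSO to be tested, and at about 0.1 CPM a difference would rest on a few reads.

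Each AAI library was also left out in turn, the rule was applied to the other 5, and the library that had not been used was then read. With SCR AAI replicate 1, 2 or 3 left out, the rule found 455, 379 and 363 genes. In the unused library, 76.5%, 90.8% and 95.3% of these lay at least 1.5 times below the lowest siB AAI value. Over all weak genes with a mean of at least 1 CPM in the libraries used, the shares were 44.2%, 52.3% and 54.1%. With siB AAI replicate 1, 2 or 3 left out, the rule found 370, 467 and 518 genes, of which 96.8%, 82.7% and 79.5% were at least 1.5 times the highest SCR AAI value in the unused library. The shares over all weak genes were 52.4%, 35.6% and 36.0%. The value of the other group that each unused library was read against had served to choose the genes, so these shares are a description and the weak genes are no like comparison.

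A gene span could be given from GENCODE 44 (hg38) for 307 members. Of these 284 were protein coding (92.5%), 22 pseudogenes and 1 a long non-coding RNA, against 88.0% protein coding among the other raised weak genes and 42.2% among all weak genes with a span. The members spanned a median of 23.4 kb, with quartiles of 9.46 and 52.9 kb. The other 577 raised weak genes, 498 with a span, had a median of 12.9 kb, and all weak genes 1.48 kb. Among 695 weak genes with a mean of at least 1 CPM over the AAI libraries and no overlap with an expressed gene, the median log2 difference between siB AAI and SCR AAI was 0.31 for spans under 3 kb, 0.53 for 3 to 10 kb, 0.80 for 10 to 30 kb and 0.86 for spans over 100 kb. A gene low in SCR AAI met that mean only through siB AAI, so the filter favours large differences, and no test was made.

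Members lay near expressed genes (a mean of at least 5 CPM in DMSO) more often than weak genes in general, but less close to them than the other raised weak genes. A same-strand expressed gene ended within 50 kb upstream for 167 of the 307 members (54.4%), against 61.8% of the other raised weak genes and 13.9% of all weak genes. The nearest upstream gene of the same strand was expressed and ended within 10 kb for 50 members (16.3%), against 37.1% and 3.99%. An expressed gene of the other strand had its end toward the member within 50 kb for 110 members (35.8%), against 42.8% and 14.5%. Expressed genes whose start faced the member lay within 50 kb of 89 members (29.0%) on the same strand, against 33.7% and 14.4%, and of 61 (19.9%) on the other, against 25.7% and 12.1%. For 47 members (15.3%) no expressed gene lay within 50 kb at either side without overlap, against 11.6% of the other raised weak genes and 63.4% of all weak genes. ADRA2A and MRC1, the mannose receptor of macrophages, had siB AAI means of 8.64 and 7.90 CPM and were picked from these 47 after their values were seen. Of all 307, 5 overlapped a same-strand expressed gene and 30 on the other strand, and whether the counting used strand is not given in the sources used here, so reads of such pairs cannot be told apart.

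The size of the knockdown difference under AAI varied with the distance to the end of an expressed gene upstream. Among the 695 weak genes above, those that began within 5 kb of the end of a same-strand expressed gene had a median log2 difference of 0.22, and 13.4% of them were members. The median was 0.66 at 5 to 10 kb, 0.77 at 10 to 20 kb, 0.99 at 20 to 50 kb, where 56.2% were members, 0.97 at 50 to 100 kb and 0.60 beyond 100 kb. The nearest genes were already raised in SCR AAI, with a median of 2.1 CPM within 5 kb against 0.893 CPM at 20 to 50 kb. The step from the nearest class to that at 20 to 50 kb was 0.77, and it was 0.87, 0.64 and 0.72 in replicate pairs 1, 2 and 3. Among genes with spans of 10 to 100 kb alone it was 0.76. Where the end of an expressed gene on the other strand faced the weak gene, the median was 0.47 within 5 kb, 0.87 at 10 to 20 kb and 0.71 at 20 to 50 kb. With the start of such a gene facing it, the median was 0.32 within 5 kb (25 genes), 0.50 at 5 to 10 kb (13 genes), 0.58 at 10 to 20 kb and 0.67 at 20 to 50 kb. Where a same-strand expressed gene had its start toward it, the medians stayed between 0.51 and 0.68 at all distances. These medians contain the members, which the rule chose on the same difference, and are a description over genes, which are not replicates. A gene low in SCR AAI could reach the required mean of 1 CPM only through siB AAI. The filter itself thus favours larger differences in classes low in SCR AAI, and its part in the step was not tested.

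**Figure D3:**
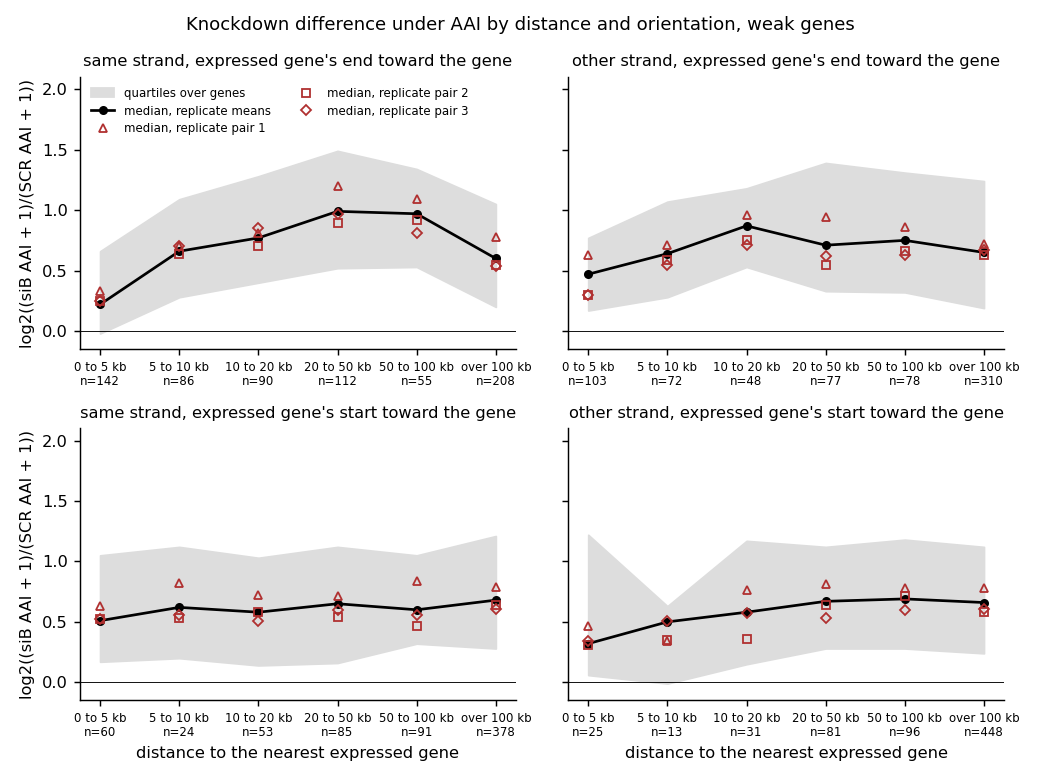
Median log2((siB AAI + 1)/(SCR AAI + 1)) in CPM for 695 weak genes (y axis) by distance to the nearest expressed gene (x axis, with the number of genes in each class), in 4 orientations. Black points are medians of the replicate means, red symbols the medians within each replicate pair, and the grey band the quartiles over genes. The panel with the expressed gene upstream on the same strand climbs from 0.22 to 0.99, those on the other strand climb from 0.47 to 0.87 (end toward) and from 0.32 to 0.69 (start toward), and the panel with its start toward the gene on the same strand stays between 0.51 and 0.68.

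Single loci are given next as rows of genes on 1 strand, in CPM per kb of exon, with the exons of all annotated isoforms joined. By this count ATP13A3 has 22838 bp of exon and GP5 3563 bp. A gene with many isoforms can be understated, so levels of different genes compare only roughly. Reads outside annotated exons, between the genes, were not analysed here. At the ATP13A3 locus, ATP13A3, a polyamine transporter gene, had 13.7 ± 3.36 in SCR AAI and 19.5 ± 4.05 in siB AAI (SD, n = 3). GP5, a platelet glycoprotein gene 3405 bp past its end, was near 0 in DMSO and had 16.5 ± 1.67 and 13.8 ± 1.66. The member LRRC15, 32928 bp past the end of ATP13A3, had 0.0519 ± 0.0425 in SCR AAI and 1.52 ± 0.705 in siB AAI. Thus the gene close by was already high in SCR AAI, and the farther gene was low in SCR AAI and higher in every siB AAI library. GP5 is no member, since its siB AAI values were not above those of SCR AAI.

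At the CORO1C locus, CORO1C, which encodes an actin-binding coronin, had 49.2 ± 9.60 per kb in SCR AAI and 59.9 ± 6.05 in siB AAI. SELPLG, the gene of the selectin ligand PSGL, lies 11214 bp past its end and had 3.85 ± 0.905 and 13.9 ± 2.55. TMEM119, 46788 bp past its end, had 0.0661 ± 0.0599 and 2.30 ± 0.852. In both loci, which end in members chosen for their large ratios, the levels under siB AAI fell with distance and the ratio of siB AAI to SCR AAI was higher for the farther gene. The other named loci with a gene between differed. Past GHITM, C10orf99 had 0.0406 in SCR AAI and 0.789 in siB AAI, and the farther member CDHR1 had 0.0625 and 0.208, a smaller ratio. C10orf99 lay under the 3-read limit in every SCR AAI library, so its ratio rests on a few reads. Past DUSP2, RDM1 and PRPS2, the siB AAI mean of the farther member was above that of the nearer gene. The means were 0.994 for ADRA2B against 0.819 for ASTL, 1.61 for CCL5 against 1.32 for LRRC37A9P, and 0.403 for TLR7 against 0.149 for PSMA6P2. PSMA6P2 had 0.252, 0 and 0.0536 CPM in the siB AAI libraries, so its mean rests on a few reads. The ADRA2B mean rests on replicate 1, with 1.9, 0.549 and 0.536 in the siB AAI libraries against 0.78, 0.822 and 0.857 for ASTL. Across the 167 pairs of a member and the expressed gene upstream within 50 kb, the member had a median of 0.294% of the upstream level per kb of exon in SCR DMSO and 0.258% in siB DMSO. The share was 1.72% in SCR AAI and 8.25% in siB AAI, with quartiles of 3.45% and 22.5% in the latter. Members were chosen as low in DMSO and higher in siB AAI, and upstream genes as expressed in DMSO. The low share in DMSO and its rise in siB AAI thus follow largely from that choice and are a description.

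**Figure D4:**
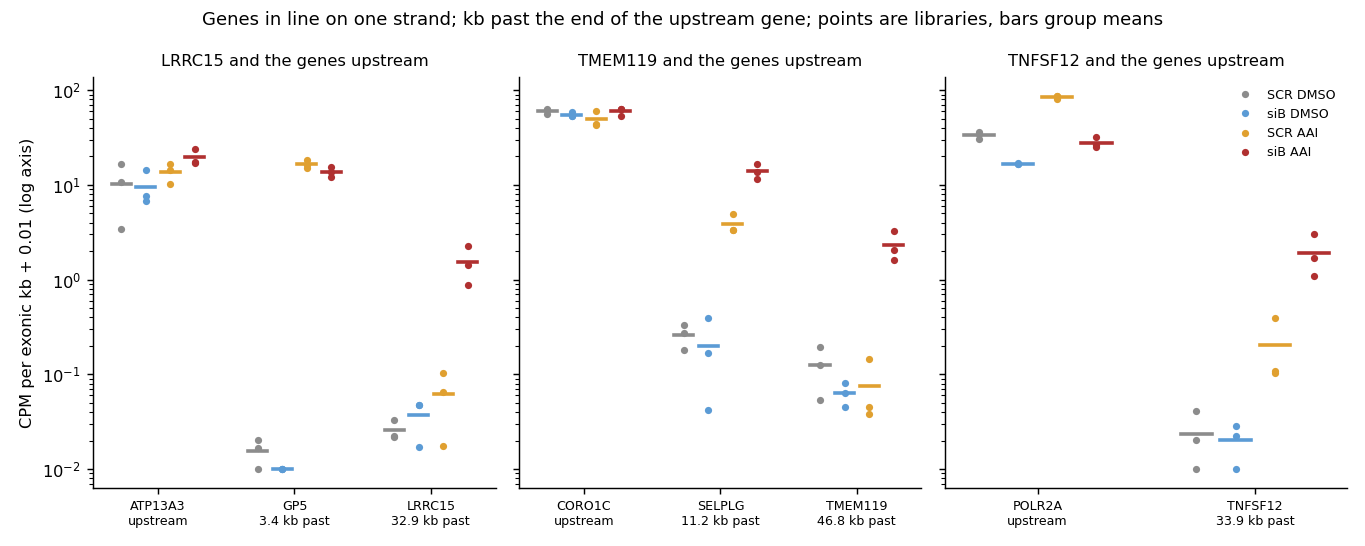
CPM per exonic kb plus 0.01 (y axis, log scale) for genes in line on 1 strand at 3 loci, each ending in a member, with points for libraries and bars for group means (n = 3 per group). GP5, 3.4 kb past ATP13A3, has means of 16.5 in SCR AAI and 13.8 in siB AAI, LRRC15 and TMEM119 have 1.52 and 2.30 in siB AAI, and TNFSF12 is raised while POLR2A upstream of it is lowered.

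The genes upstream were not chosen by the rule, so their own change could be tested. Of the 50 distinct expressed genes that ended within 10 kb before a member, 2 were raised by knockdown under AAI and 0 lowered, that is 4.0% against the background of 3.04%, and their median log2 change was 0.01. Of the 166 nearest expressed genes within 50 kb, 3 were raised (1.81%) and 1 was lowered (0.602%, against a background of 0.629%), again with a median of 0.01, and 89 of 166 had a change above 0. The raised genes were TLL2, a tolloid-like protease gene upstream of OPALIN, ST3GAL3, a sialyltransferase gene upstream of ARTN, and ZNF528, upstream of ZNF534.

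TLL2 went from 7.55 ± 1.04 CPM in SCR AAI to 33.1 ± 6.06 CPM in siB AAI (log2 change of 1.99, SE 0.20, limma adjusted p = 5.82e-04). OPALIN, a myelin gene 5242 bp past its end, had 0.497, 0.408 and 0.313 CPM in SCR AAI and 4.17, 3.88 and 4.34 CPM in siB AAI, a log2 change of 1.87. ST3GAL3 went from 2.39 ± 0.856 to 9.08 ± 0.505 CPM (1.60, SE 0.23, adjusted p = 0.00231), and ARTN, a neurotrophic ligand gene, from 0.543 ± 0.230 to 2.33 ± 1.0 CPM. ZNF528 went from 12.7 ± 2.20 to 34.3 ± 9.38 CPM (1.35, SE 0.22, adjusted p = 0.00436). In these 3 pairs the upstream gene passed the test, while the member stood higher as the rule requires of every member.

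The lowered upstream gene was POLR2A itself, the knockdown target. The member TNFSF12 (chromosome 17, 7548508 to 7557890, plus strand) begins 33891 bp past its end. TNFSF12 had 13.8, 7.61 and 4.88 CPM in siB AAI against 1.77, 0.453 and 0.431 CPM in SCR AAI, and 0 to 0.140 CPM in DMSO. Per kb of exon POLR2A fell from 84.6 ± 3.60 in SCR AAI to 27.8 ± 3.53 in siB AAI, while TNFSF12 stood at 0.194 ± 0.168 and 1.92 ± 0.997. This member, higher under siB AAI by the rule, thus lay past a gene whose message count was lower. The siRNA acts on the finished message, so the POLR2A count does not measure its transcription. TNFSF12 overlaps another annotated gene, and reads shared with it cannot be told apart.

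**Figure D5:**
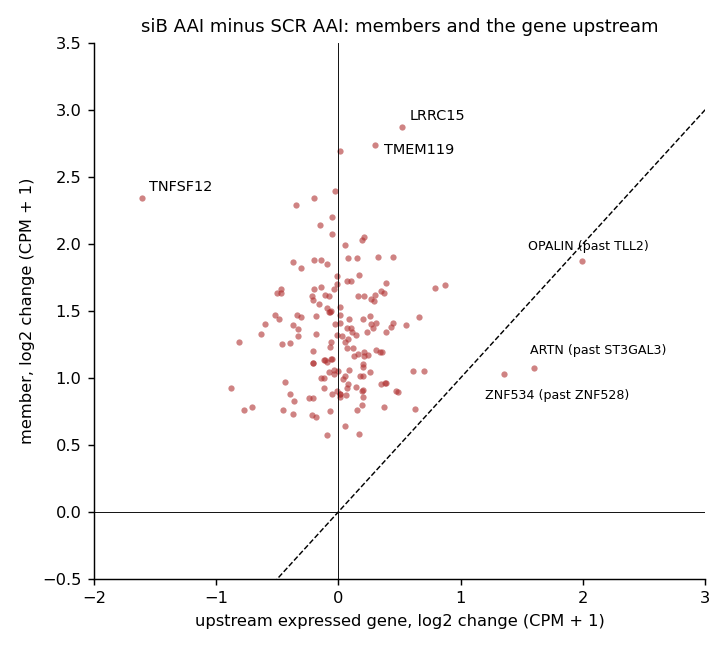
Log2 change in CPM + 1 between siB AAI and SCR AAI for the upstream expressed gene (x axis) and the member (y axis) in 167 pairs within 50 kb, with equality dashed. The upstream genes centre on a median of 0.01 while the members lie above 0 by the rule, TNFSF12 pairs with POLR2A at -1.61, and OPALIN, ARTN and ZNF534 pair with the 3 raised upstream genes.

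Factors of 3′ end cleavage and termination were taken as a list of 23 genes. By limma 0 of 23 were called between siB and SCR cells under AAI, in either direction, with a median log2 change of 0.02 and values from -0.58 to 0.31. In DMSO 0 were called between siB and SCR, and in SCR cells 0 were called with AAI. In siB cells AAI raised 4 of 23, against a background of 13.9%, and lowered 0. These included PCF11, a subunit of cleavage factor II, with a log2 change of 1.74 (SE 0.21, adjusted p = 1.54e-04), CSTF3 with 1.43 and RBBP6 with 1.31. PCF11 had a like change in SCR cells that did not pass (1.5, SE 0.47, adjusted p = 0.0798). Message levels of these factors therefore did not separate siB from SCR cells under AAI by this test, which does not show that they were equal.

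Markers of some other cell types also stood higher in siB AAI. The summed level of 4 endothelial markers was 1.17 to 2.50 CPM in SCR DMSO, 1.39 to 1.94 CPM in siB DMSO, 1.55 to 1.61 CPM in SCR AAI and 3.75 to 5.62 CPM in siB AAI, nearly all of it PECAM1, with VWF at or under 0.107 CPM in siB AAI. Among 5 immune markers the sum was 0.701 to 1.85, 0.558 to 1.44, 1.68 to 3.75 and 4.85 to 8.08 CPM, with CD3E at 0 in all 12 libraries. Among 5 muscle markers it was 16.7 to 49.1, 28.0 to 37.4, 46.3 to 58.7 and 66.0 to 78.7 CPM, mostly TTN, with DES at or under 0.138 CPM in siB AAI. None of these 14 markers was a member, 11 of them were weak genes, and their part in the result was not tested. The 5 neuronal markers summed to 10.7 to 12.2 CPM in SCR AAI and 14.4 to 16.2 CPM in siB AAI, against 11.3 to 38.9 CPM in SCR DMSO, and the 5 germ cell markers to 1.55 to 5.44 and 2.71 to 3.74 CPM. The 5 epithelial markers summed to 1107 to 1906 CPM in all libraries. KRT19 among them was lower in siB AAI, with 62.4 to 102 CPM against 135 to 191 CPM in SCR AAI. The 12 proximal tubule markers summed to 112 to 194 CPM, mostly GGT1, with LRP2 at 0.0902 to 1.20 CPM. SLC34A1 of that list was lower in siB AAI, with 0.505 to 0.911 CPM against 1.64 to 2.04 CPM in SCR AAI.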

How the data were processed

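Poly(A) RNA of 12 HK-2 libraries was sequenced in paired-end mode. Per the labels and the study's methods, the authors aligned reads to hg38 and counted them per gene, and the aligner and strand setting are not given in the sources used here. The authors deposited log10 values, log10(CPM + 1). Each was converted to CPM as 10 to that power minus 1. In every library at least 99.997% of values were whole multiples of 1 read's worth within 0.02 of a read, so depths and limits (3 reads, counting error only) were recovered. Groups came from sample titles, since a treatment label read DMSO throughout.

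The test was limma 3.58.1 under R 4.3.3 (linear fit, eBayes with trend) on log2(CPM + 1), each pair of groups alone, over genes with at least 1 CPM in 3 libraries of the pair (DMSO comparison: a mean of at least 0.1 CPM). Calls needed a Benjamini-Hochberg adjusted p under 0.05 over all genes tested and 2-fold, and fold changes of low genes are understated on this scale. The fit was tried on simulated counts in which only genes with a mean of at least 5 CPM were changed. That trial therefore does not cover genes as low as most members. Members, lists and named genes were chosen with earlier results of these data known. Named members were the 15 highest and the 10 best separated, those next to the ratio of 1.5, those in family or marker lists, those within 10 kb past another member, and upstream genes. Those past another member were ADRA2B (past ASTL), C1orf64, CASQ1, PGA4 and SDR42E2, with PGA3 and PGA4 paralogs that may share reads. A few genes that the rule names are not reported here.

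Spans came from GENCODE 44, matched by symbol for 25856 genes and by older symbol for 1132. Names of 28 genes had turned into dates and none was a member. Same-numbered AAI libraries deviated together (r of 0.635, 0.328 and 0.301 over 14465 genes), as did SCR libraries across AAI (0.432, 0.487 and 0.355). With a limit of r of 0.1 in each replicate, these numbers were taken to pair the samples. Libraries of unlike number were not compared. The main calls were made without pairing, and the replicate block was an alternative. Alternatives were other limits of the rule, pseudocount 0.1, no filter, median-ratio size factors, all 4 groups, a replicate block, voom, RefSeq spans and leaving out each library. The alternatives without SCR DMSO replicate 2, by replicate pair, by span, and on protein-coding genes or size factors for the distance classes were chosen after seeing the data.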

Additional observations from a re-analysis of the deposited data

Results flagged for a closer look

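Of 166 upstream genes and the 23 termination factors, 3 upstream genes and 0 factors differed in their AAI response between siB and SCR cells, by an interaction term over all 4 groups in limma (247 of 15325 genes at an adjusted p under 0.05). The 3 of 166 are a share near that over all genes, so the count does not set the upstream genes apart. TLL2, upstream of OPALIN, had an AAI effect that was 2.21 higher on the log2 scale in siB than in SCR cells (adjusted p = 0.0194). For ST3GAL3, upstream of ARTN, the difference was 1.38 (adjusted p = 0.0363), with AAI lowering it in SCR cells by limma (log2 change of -1.94). For MDC1, a DNA damage mediator gene upstream of the ribosomal protein pseudogene RPL7P4, it was 1.11 (adjusted p = 0.0283).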

How the results depend on the processing

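The set held 236 to 518 genes under every change of the rule or left-out library, within 1.5 times of 348. The exchanged rule found 10 genes at the looser ratio, 1 at a ratio of 2 and 7 without the 3 CPM limit, and 4 to 9 with AAI libraries left out. In DMSO, 0 genes were called by knockdown in all settings but the fit of all 4 groups, which called 6, none of them a member. By knockdown under AAI, 548 genes were called and 188 to 761 with a library left out, the fewest without SCR AAI replicate 3. AAI in SCR cells gave 1489 calls and 875 to 1984 with a library left out, with 875 to 973 without any 1 of the SCR AAI libraries or SCR DMSO replicate 3. The replicate block gave 584 calls by knockdown under AAI with 240 members raised, and changed no other result by over 1.5 times. By the limit of r of 0.1 in each replicate, numbers did not pair the DMSO libraries (0.738, 0.607 and -0.199). The same held for the siB libraries across AAI (0.222, 0.0251 and 0.214). In these contrasts the block gave 0 and 2950 calls. Voom on the recovered reads called 745 genes by knockdown under AAI. Of members, 24 had the nearest upstream gene expressed and within 5 kb, 146 within 50 kb, and 51 (15.7%) under the rule without siB AAI replicate 1, an alternative chosen after seeing the data. The step by distance was 0.77, and 0.64 in replicate pair 2 alone. Levels under 0.2 CPM rest on a few reads and set no order.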
